A study of Mus musculus with 3 samples.

Results

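9 genes make up the TGF-beta signaling genes described here: the ligand gene Tgfb1, the receptor genes Tgfbr1 and Tgfbr2, the signal transducer genes Smad2, Smad3 and Smad4, and the genes of 3 negative regulators, Smad7, Ski and Skil. They were matched by symbol, and the list was chosen with earlier results of these data known. All 9 were found in each of the 3 libraries, among 30406 gene identifiers that the libraries share. The cells were thymocytes from which CD8+ cells had first been removed with beads. Those that bound CD1d tetramer and carried TCRβ but neither CD24 nor NK1.1, the phenotype of early invariant NKT (iNKT) cells, were then profiled by droplet single-cell RNA sequencing. The C57BL/6 library came from mice without bone marrow transplantation (BMT), labelled 7 weeks. The BM only and BM + Spl libraries came from F1 (C57BL/6 x BALB/c) recipients that were labelled 16 weeks and 9 weeks after BMT. Both kinds of recipient had been lethally irradiated and had received T cell-depleted C57BL/6 BM, and BM + Spl recipients, the group with graft-versus-host disease (GvHD), had also received C57BL/6 splenic cells. Each condition had 1 library pooled from several mice, so no test between conditions was possible, and all 95% intervals cover counting error only. The C57BL/6 mice differed from BM only mice in strain, age, irradiation and transplantation at once.

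TGF-beta is secreted in a latent form and, once released, binds the type II receptor, which activates the type I receptor. The activated receptor phosphorylates Smad2 and Smad3, which join Smad4 and act on target genes in the nucleus. Smad7 blocks the receptor and is itself induced by the pathway, while Ski and SnoN, the product of Skil, repress Smad complexes. In the thymus the pathway is known for its part in the development of regulatory T cells, NKT cells and CD8αα+ intraepithelial lymphocyte precursors.

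The members lie on several chromosomes of GRCm38. Smad3 (chr9:63646767-63757994, minus strand) and Tgfbr2 (chr9:116084293-116175360, minus strand) are on chromosome 9, and Tgfbr1 (chr4:47353222-47414931, plus strand) and Ski (chr4:155154075-155222592, minus strand) on chromosome 4. Skil is at chr3:31095058-31122577 on the plus strand and Tgfb1 at chr7:25687002-25705077 on the plus strand. The 250 bases before the annotated start of 3 of them are printed below from RefSeq (GRCm38.p6), because these 3 genes were the ones that were lower together in Foxp3+ cells of BM + Spl mice. They are Smad3 at chr9:63757995-63758244, Tgfbr1 at chr4:47352972-47353221 and Tgfbr2 at chr9:116175364-116175613, each given 5′ to 3′ on the strand of its gene. Capitals mark CAGAC, the core of a Smad binding element, and GGGCGG, the core of a GC box, each searched on both strands.
Smad3: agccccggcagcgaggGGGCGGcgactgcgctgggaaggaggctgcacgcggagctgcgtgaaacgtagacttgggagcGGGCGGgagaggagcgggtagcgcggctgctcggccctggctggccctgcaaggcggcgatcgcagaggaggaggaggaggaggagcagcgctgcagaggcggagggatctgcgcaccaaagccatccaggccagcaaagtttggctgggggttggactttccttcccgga
Tgfbr1: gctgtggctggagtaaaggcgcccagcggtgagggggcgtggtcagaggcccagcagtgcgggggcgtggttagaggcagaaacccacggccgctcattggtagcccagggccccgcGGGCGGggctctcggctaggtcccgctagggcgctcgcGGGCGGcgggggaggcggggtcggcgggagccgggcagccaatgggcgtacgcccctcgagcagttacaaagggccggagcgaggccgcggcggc
Tgfbr2: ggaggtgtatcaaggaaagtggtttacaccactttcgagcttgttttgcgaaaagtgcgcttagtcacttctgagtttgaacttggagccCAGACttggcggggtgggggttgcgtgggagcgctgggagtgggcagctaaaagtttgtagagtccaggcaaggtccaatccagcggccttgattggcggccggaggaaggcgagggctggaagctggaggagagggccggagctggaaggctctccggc
CAGAC occurred 1 time in the Tgfbr2 window and in neither of the others, and GGGCGG occurred 2 times each in the Smad3 and Tgfbr1 windows and 0 times in that of Tgfbr2. Among 32851 promoter windows of the same length, 42.2% held CAGAC and 32.7% held GGGCGG on either strand. These matches are a description of the letters and not evidence of a bound site.

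The libraries held 4434 (C57BL/6), 5970 (BM only) and 5557 (BM + Spl) cells that passed the filters, with median depths before filtering of 11885, 4734 and 6485 unique molecular identifiers (UMIs) per cell. Cells were gated on markers that include none of the members, and levels are summed UMIs per 1000000 UMIs of a gate (CPM). NKT1-like cells numbered 1224, 2700 and 874 in C57BL/6, BM only and BM + Spl, NKT2-like cells 1829, 927 and 1580, NKT17-like cells 243, 444 and 242, and cycling-like cells 895, 330 and 514. Against the sort, the BMT libraries also held 637 and 697 cells with a Foxp3 UMI, 152 and 327 with Cd8a and Cd8b1 UMIs, 176 and 405 in a plasmacytoid dendritic gate and 82 and 68 in a B-cell gate, where C57BL/6 held at most 3 in each. The 6 NKT1 markers that no gate used (Gzmb, Gzma, Stat4, Ifng, Slamf7 and Ccl5) summed to 1564, 2921 and 1057 CPM in NKT1-like cells of C57BL/6, BM only and BM + Spl, and to 25.2, 41.2 and 42.7 CPM in NKT2-like cells. In BM only and BM + Spl they summed to 632 and 931 CPM in Foxp3+ cells, and to 1641 and 2728 CPM in Cd8a+Cd8b1+ cells. In BM + Spl these markers therefore do not set NKT1-like cells apart from Cd8a+Cd8b1+ cells. The 4 NKT2 markers that no gate used were Gata3, Tox, Izumo1r and Il13. In C57BL/6, BM only and BM + Spl they summed to 878, 888 and 1004 CPM in NKT2-like cells. NKT1-like cells had 507, 295 and 447 CPM of them, and Foxp3+ cells of the BMT libraries 666 and 650 CPM. The 4 for NKT17 (Maf, Il17a, Il7r and Ccr2) summed to 2574 CPM in NKT17-like and 1502 CPM in NKT1-like cells of C57BL/6. In BM only they summed to 1527 and 893 CPM. The BM only and BM + Spl libraries shared 43 cell barcodes, and neither shared one with C57BL/6. V beta transcripts made up 17.7 CPM in C57BL/6 and 1495 and 1670 CPM in BM only and BM + Spl. Both 3′ and 5′ kits are named for the series without saying which library used which.

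Smad3 had the largest log2 ratio of any member between BM + Spl and BM only in NKT1-like, NKT17-like, cycling-like and Foxp3+ cells, and it was lower in BM + Spl in all 4. In NKT2-like cells its counting interval included no difference. In NKT1-like cells it stood at 38.7 CPM in C57BL/6 (95% interval 34.7 to 43.1), 50.1 CPM in BM only (46.2 to 54.2) and 11.5 CPM in BM + Spl (8.61 to 15.1). The BM + Spl interval lay below both others, and the ratio to BM only was -2.12 on the log2 scale (-2.56 to -1.71), or 4.34-fold lower. In NKT2-like cells the same 3 libraries gave 31.6, 30.7 and 27.6 CPM, with a log2 ratio of BM + Spl to BM only of -0.15 (-0.39 to 0.09). A difference larger than that interval was not seen in NKT2-like cells. Foxp3+ cells had 19.0 CPM in BM only and 8.58 CPM in BM + Spl (log2 ratio -1.15, -1.70 to -0.60). NKT17-like cells had 31.5, 36.3 and 20.6 CPM in C57BL/6, BM only and BM + Spl (log2 ratio of the BMT libraries -0.82, -1.46 to -0.21), and cycling-like cells 25.4, 27.5 and 17.9 CPM (-0.62, -0.98 to -0.26, and -0.56 among cells with an iNKT V beta, under 1.5-fold). The intervals of all these gates except NKT2-like cells lay below 0. Among Cd8a+Cd8b1+ cells only 18 and 15 Smad3 UMIs were counted in BM + Spl and BM only, and the interval of their log2 ratio, -2.09 to 0.08, included no difference.

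**Figure D1:**
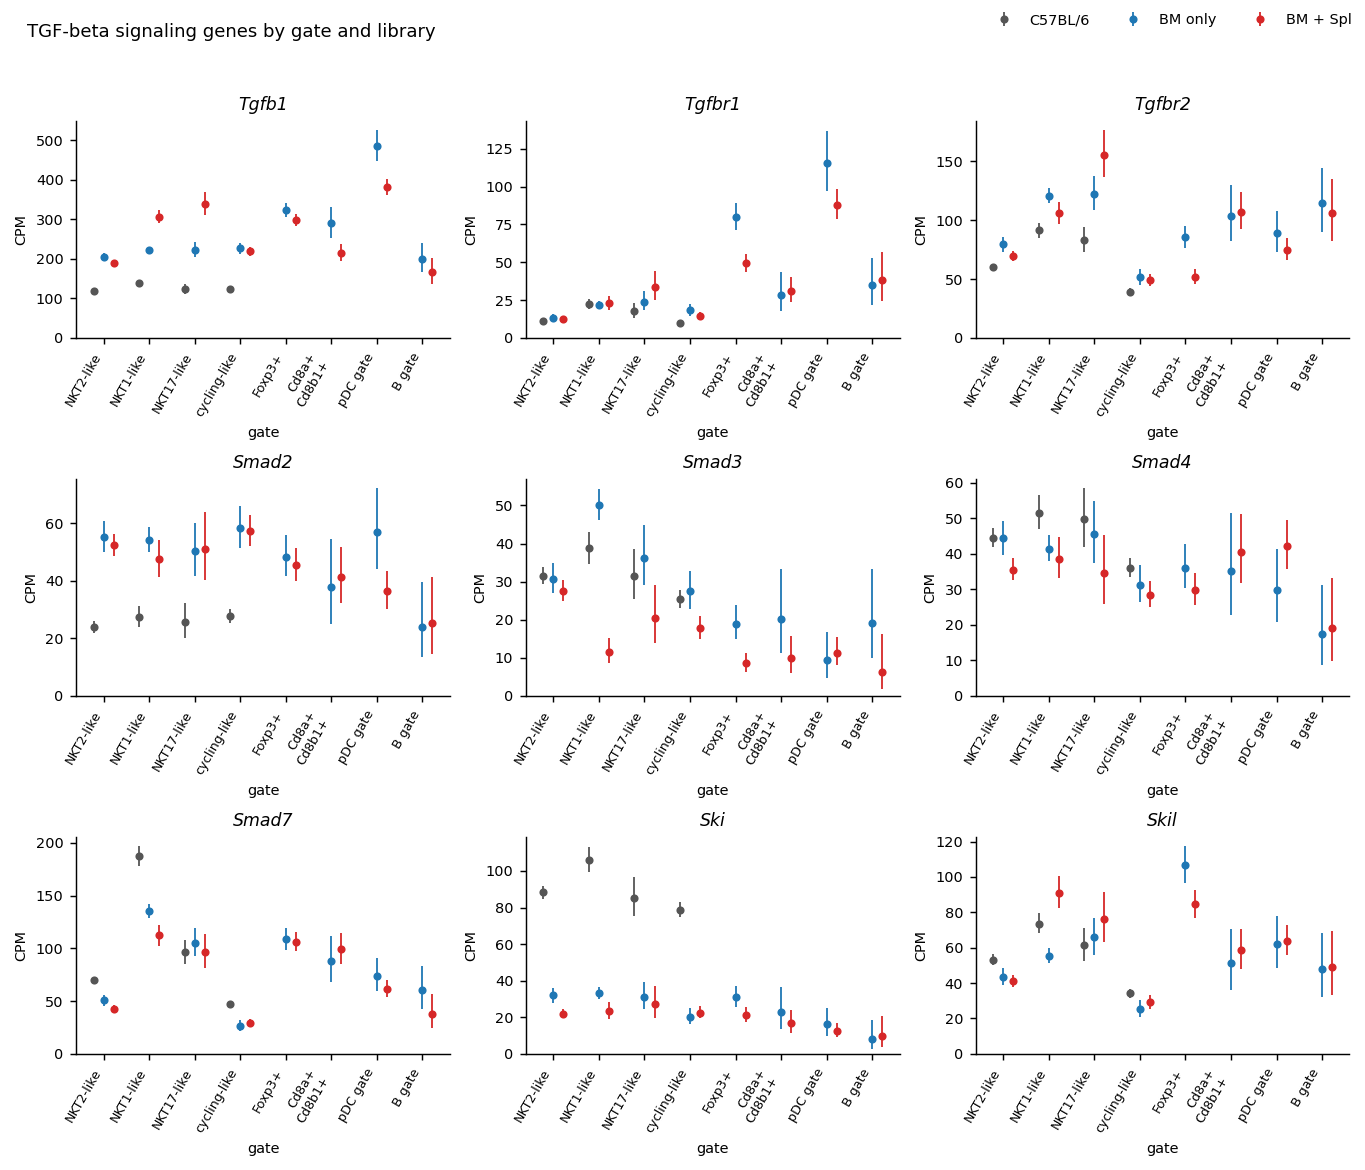
Level of each of the 9 genes in CPM (y axis, linear, from 0; scales differ between panels) by gate (x axis) in C57BL/6 (grey), BM only (blue) and BM + Spl (red), 1 library each, with pDC standing for plasmacytoid dendritic and gates under 50 cells not drawn. Points are summed UMIs per 1000000 UMIs and bars exact Poisson 95% intervals; Smad3 in NKT1-like cells was at 38.7, 50.1 and 11.5 CPM in the 3 libraries in that order.

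The order of Smad3 over gates therefore differed between libraries. In BM only, NKT1-like cells had the highest Smad3 level among gates of over 100 cells, and their interval did not overlap that of NKT17-like cells (29.0 to 44.8 CPM), the next below them. NKT17-like and NKT2-like cells (26.9 to 35.0) could not be ordered, and Foxp3+ cells (14.9 to 23.9) lay below NKT2-like cells. In BM + Spl, the interval of NKT2-like cells (25.0 to 30.5 CPM) overlapped that of mixed cells (18.1 to 41.3), which met the NKT1 and NKT2 gates equally. It also overlapped those of NKT17-like (14.0 to 29.2) and ungated cells (15.3 to 26.9). The interval of NKT1-like cells (8.61 to 15.1) overlapped those of Foxp3+ cells (6.32 to 11.4), Cd8a+Cd8b1+ cells (5.94 to 15.8) and the plasmacytoid dendritic gate (8.02 to 15.4). It also overlapped those of NKT17-like cells, cycling-like cells (15.04 to 21.1) and the B-cell gate (1.73 to 16.2). Overlap of 2 separate intervals does not show equal levels, and ratios of NKT1-like cells to these gates were not computed. In C57BL/6, NKT1-like and NKT2-like cells were next to each other at 38.7 and 31.6 CPM, with intervals that did not overlap.

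Across the 9 members, a difference was counted where it was past 1.5-fold and the gene had at least 100 UMIs in the 2 pools compared. Over all cells of BM + Spl against BM only, Smad3 alone passed, 1 of 9 members, where 12.6% of 11714 tested genes did, so that the share of members was near the background. Its summed level was 18.6 CPM in BM + Spl and 35.0 CPM in BM only (log2 ratio -0.91, -1.04 to -0.78). Fewer cells of a gate and less RNA per cell cannot be told apart in that sum, and NKT1-like cells made up 15.7% of the BM + Spl library and 45.2% of the BM only library. The other 8 members had log2 ratios between -0.47 (Smad7) and 0.04 (Tgfb1) over all cells. The median over the members was -0.21, against 0.01 over all genes.

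Within NKT1-like cells 2 of 9 members passed, Smad3 and Skil, beside 19.1% of 8765 genes, again a share close to the background. Smad3 stood at the 0.582 percentile of the log2 ratios of those genes. Skil was at 73.7, 55.6 and 91.1 CPM in C57BL/6, BM only and BM + Spl, so BM + Spl was highest (log2 ratio to BM only 0.71, 0.53 to 0.89). Tgfb1 was at 139, 221 and 306 CPM, and its BMT log2 ratio of 0.47 (0.37 to 0.56) did not reach 1.5-fold. Smad7 had 187, 136 and 112 CPM (-0.27, -0.42 to -0.13) and Ski 106, 33.4 and 23.5 CPM (-0.50, -0.83 to -0.19). BM + Spl was thus higher than BM only for Tgfb1 and the inhibitor Skil, and lower for the inhibitors Smad7 and Ski. C57BL/6 differed from both in strain, age, irradiation, transplantation, depth and version of the counting software at once. Whether the library kit differed is not stated. In this gate 43.2% of genes passed 1.5-fold between BM only and C57BL/6, so the place of C57BL/6 in these orders cannot be read. The intervals for Tgfbr1 (-0.25 to 0.42), Smad2 (-0.42 to 0.03) and Smad4 (-0.36 to 0.15) included 0, and Tgfbr2 differed by -0.19 (-0.34 to -0.04).

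Other markers moved with the NKT1-like gate. The 4 regulatory T cell markers that no gate used (Il2ra, Ikzf2, Ctla4 and Tnfrsf18), all 4 detected, summed to 272 CPM in NKT1-like cells of BM only and 779 CPM in those of BM + Spl, with Foxp3 at 0 in both by the gate. The 6 gate markers of NKT1 summed to 3774 and 2693 CPM and the 6 of NKT2 to 184 and 384 CPM in the same cells. Cd8a and Cd8b1 together reached 16.3 and 34.4 CPM, and 9 myeloid markers 5.49 and 20.4 CPM. Their part in the Smad3 and Skil values was not tested.

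In NKT2-like cells no member differed by 1.5-fold between BM + Spl and BM only in the summed UMIs of all cells of the gate. None of the 9 members passed 1.5-fold there, beside 2.17% of 8948 genes. The member farthest from 0 was Ski, at 31.9 CPM in BM only and 21.7 CPM in BM + Spl (log2 ratio -0.56, -0.81 to -0.31). Its log2 ratio ranged from -0.62 to -0.46 over the alternatives. Ski passed 1.5-fold as a mean over cells and among cells with an iNKT V beta. Smad4 (-0.32, -0.52 to -0.12), Smad7 (-0.24, -0.43 to -0.05), Tgfbr2 (-0.19, -0.34 to -0.05) and Tgfb1 (-0.11, -0.20 to -0.02) were also lower by less than 1.5-fold, and the intervals of Tgfbr1, Smad2, Smad3 and Skil included 0. In NKT17-like cells 2 of 9 passed beside 12.3% of genes. They were Smad3 and Tgfb1, the latter at 123, 222 and 339 CPM in C57BL/6, BM only and BM + Spl (log2 ratio of the BMT libraries 0.61, 0.43 to 0.79). Among cells with an iNKT V beta that ratio was 0.15, and thinned to 2700 UMIs a cell it was 0.42, both under 1.5-fold. As a mean over cells the call of Tgfb1 was lost too, and only Smad3 passed, beside 12.8% of genes. In cycling-like cells only Smad3 passed, 1 of 9, beside 3.57% of genes. Without the 5% of cells with most UMIs 3 members passed there, beside 7.41% of genes, and with thinning 0, beside 3.55%. The 6 NKT1 markers that no gate used summed to 407 CPM in cycling-like cells of BM only and 118 CPM in those of BM + Spl. The part of this in the Smad3 value of cycling-like cells was not tested.

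Foxp3+ cells of BM + Spl had lower Smad3 and lower levels of both receptor chains than those of BM only. In these cells 3 of 9 members passed, all lower, beside 7.18% of 7756 genes past 1.5-fold either way and 4.76% lower. The median over the members was -0.34, against -0.05 over all genes. Tgfbr1, the type I receptor, was at 79.8 CPM in BM only and 49.5 CPM in BM + Spl (log2 ratio -0.69, -0.93 to -0.45). Tgfbr2, the type II receptor, was at 85.5 and 52.0 CPM (-0.72, -0.95 to -0.49). Skil had 107 and 84.5 CPM (-0.34, -0.53 to -0.14), and Smad7 109 and 106 CPM with an interval that included 0. The 4 regulatory T cell markers that no gate used summed to 2207 and 2220 CPM in Foxp3+ cells of BM only and BM + Spl, and the 10 cycling markers to 661 and 841 CPM. The part of cycling in these values was not tested. Thinning every cell to 2700 UMIs brought the log2 ratio of Tgfbr1 to -0.43, under 1.5-fold, and a mean over cells to -0.52, while the thinned value of Tgfbr2 was -0.90.

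Of the remaining gates, 0 of 5 members with enough UMIs passed in Cd8a+Cd8b1+ cells (7.75% of genes) and 0 of 1 in mixed cells (9.70%). In ungated cells 1 of 8 passed (7.65% of genes), Tgfbr1 at 57.03 CPM in BM only and 33.9 CPM in BM + Spl (log2 ratio -0.75, -1.21 to -0.29). Smad3 in ungated cells was at 33.5 and 20.5 CPM, a log2 ratio of -0.71 (-1.31 to -0.11) on 99 UMIs, 1 below the minimum.

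**Figure D2:**
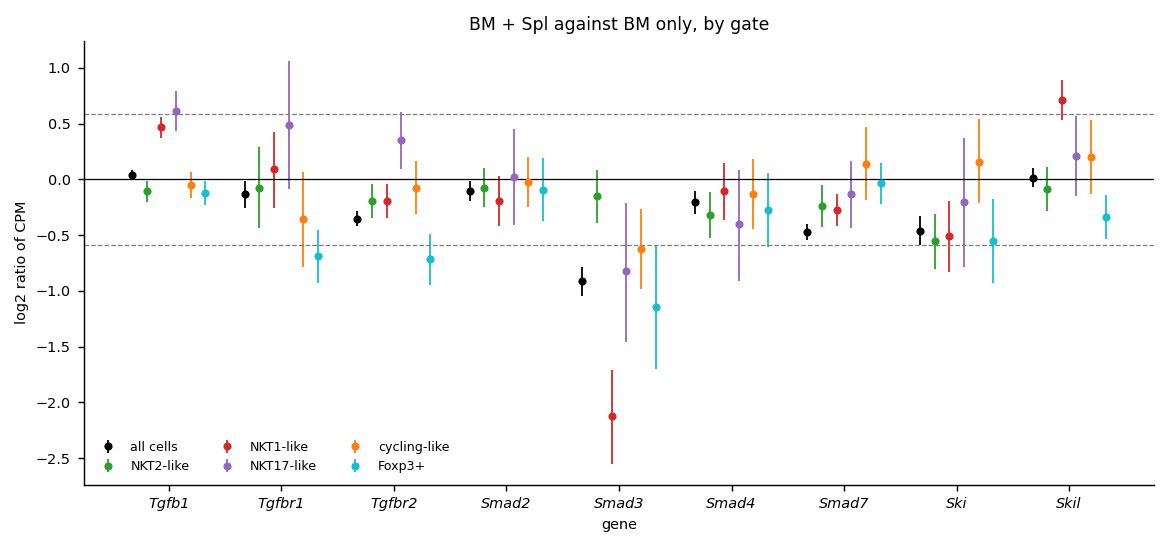
log2 ratio of CPM in BM + Spl to BM only (y axis) for each of the 9 genes (x axis) in all cells and 5 gates (colours), with exact 95% counting intervals; dashed lines mark 1.5-fold. Smad3 lies at -2.12 in NKT1-like cells and at -0.15 in NKT2-like cells.

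Whether the members differ between gates was asked within each library, so that both sides share the pool of mice and the library kit. The gates are not shown to hold iNKT cells alone. In BM + Spl, 302 of 874 NKT1-like and 1302 of 1580 NKT2-like cells had an iNKT V beta. Cells of donor and recipient origin were not told apart. In every library Smad7 stood above its NKT2-like level in NKT1-like cells, at 187 against 69.6 CPM in C57BL/6, 136 against 50.6 in BM only and 112 against 42.8 in BM + Spl. Its log2 ratios were 1.43 (1.33 to 1.53), 1.42 (1.26 to 1.59) and 1.39 (1.22 to 1.56), and the 3 intervals overlapped. Tgfbr1 was 22.2 against 11.3 CPM, 21.5 against 13.2 and 22.8 against 12.6 (log2 ratios 0.97, 0.70 and 0.86). Tgfbr2 was 91.4 against 59.99 CPM, 121 against 79.5 and 106 against 69.5, with log2 ratios of 0.61, 0.60 and 0.61, which sit at the 1.5-fold line. Members past 1.5-fold numbered 3 of 9 in C57BL/6, 4 of 9 in BM only and 6 of 9 in BM + Spl, beside 22.1%, 27.6% and 28.0% of all genes tested. Thinned to 2700 UMIs a cell, 4, 2 and 3 members passed in C57BL/6, BM only and BM + Spl, beside 22.4%, 27.2% and 24.3% of genes. As a mean over cells 3, 1 and 4 passed, beside 22.6%, 27.5% and 28.6%, and Tgfbr1 in BM + Spl (0.45) was among those under 1.5-fold. In BM only the share of members was thus near or below the background in both settings. The order of the libraries in these counts therefore differed between settings. The median over the members was 0.30, 0.35 and 0.61 in the same order, against 0.04, -0.01 and 0.05 over all genes.

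Smad3 and Skil were where the libraries parted. The log2 ratio of Smad3 in NKT1-like to NKT2-like cells was 0.30 (0.11 to 0.48) in C57BL/6, 0.70 (0.48 to 0.93) in BM only and -1.26 (-1.71 to -0.84) in BM + Spl. The sign in BM + Spl was thus opposite to that in the other libraries, with no overlap of intervals. The BM only value was 0.56, under 1.5-fold, as a mean over cells. Skil was higher in NKT1-like cells by 0.47 (0.33 to 0.61), 0.35 (0.16 to 0.55) and 1.15 (0.97 to 1.34), and only the last passed 1.5-fold. Tgfb1 gave 0.23, 0.11 and 0.68 in the same order, the last also past 1.5-fold, though 0.47 when thinned and 0.49 as a mean over cells were not. Smad2 and Smad4, like Smad7 genes of chromosome 18, and Ski stayed between -0.14 and 0.26 in all 3 libraries.

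**Figure D3:**
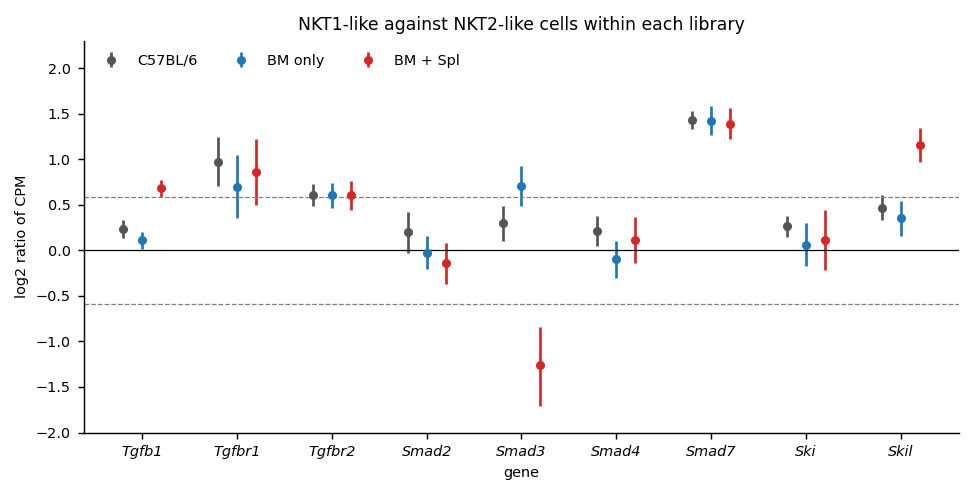
log2 ratio of CPM in NKT1-like to NKT2-like cells (y axis) for the 9 genes (x axis) in C57BL/6 (grey), BM only (blue) and BM + Spl (red), with exact 95% counting intervals; dashed lines mark 1.5-fold. Smad7 is at 1.43, 1.42 and 1.39, and Smad3 at 0.30, 0.70 and -1.26.

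The NKT1-like gate of BM + Spl held more cells with a V beta that iNKT cells rarely use. Of its 874 cells, 302 had at least 80% of their V beta UMIs on segments used by iNKT cells (Trbv1, Trbv12-2, Trbv13-1, Trbv13-2, Trbv13-3 and Trbv29) and 479 had other V beta, against 2204 and 206 of 2700 in BM only. Among NKT1-like cells with an iNKT V beta, Smad3 was at 50.5 CPM in BM only and 14.5 CPM in BM + Spl, from 504 and 22 UMIs (log2 ratio -1.80, -2.48 to -1.18). Among those with another V beta it was at 44.7 and 9.96 CPM, from 40 and 24 UMIs (-2.16, -2.96 to -1.40). On both sides of the split the counting interval lay below 0. With another V beta, Smad3 had fewer UMIs in both pools together than the minimum for a counted difference. No call was therefore made on that side. The part of the V beta mix in the Smad3 value of all NKT1-like cells was not tested. Skil gave 54.3 and 97.1 CPM with an iNKT V beta (0.84, 0.57 to 1.10) and 51.4 and 90.1 CPM with another (0.81, 0.35 to 1.30). Within BM + Spl, 0 of 6 members with enough UMIs differed past 1.5-fold between NKT1-like cells with another and with an iNKT V beta, beside 5.16% of 4996 genes.

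With both gates restricted to iNKT V beta cells, Smad3 in NKT1-like to NKT2-like cells was 0.73 (0.49 to 0.98) in BM only and -0.91 (-1.61 to -0.29) in BM + Spl. Smad7 was 1.47 (1.29 to 1.65) and 1.52 (1.26 to 1.77) in the same cells, and Skil 0.38 (0.17 to 0.60) and 1.31 (1.03 to 1.58). In NKT1-like cells with an iNKT V beta the 4 regulatory T cell markers summed to 253 CPM in BM only and 692 CPM in BM + Spl. A V beta segment does not by itself show that a cell is an iNKT cell. In C57BL/6, 11 NKT1-like cells had another V beta, too few to compare.

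**Figure D4:**
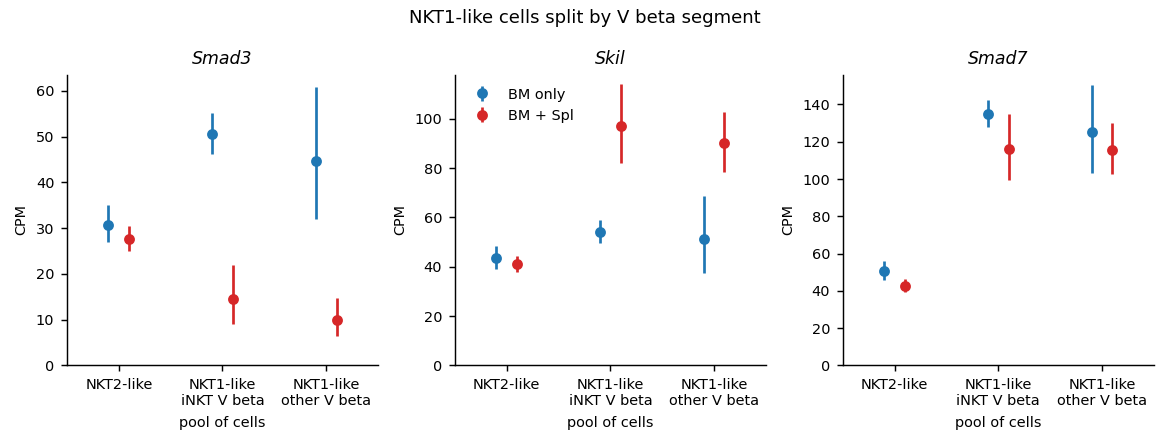
Level of Smad3, Skil and Smad7 in CPM (y axis, linear, from 0) in NKT2-like cells and in NKT1-like cells with an iNKT or another V beta (x axis) of BM only (blue) and BM + Spl (red), with exact Poisson 95% intervals. Smad3 with an iNKT V beta is at 50.5 CPM in BM only and 14.5 CPM in BM + Spl.

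NKT17-like cells, like NKT1-like cells, had more Tgfbr1 than NKT2-like cells in every library. Of the NKT17-like cells, 241 of 444 in BM only and 78 of 242 in BM + Spl had an iNKT V beta. In this gate 6 NKT1 markers that no gate used summed to 45.4, 278 and 358 CPM in C57BL/6, BM only and BM + Spl. The part of this mix of cells in the values below was not tested. Members past 1.5-fold against NKT2-like cells numbered 1, 4 and 5 of 9 in C57BL/6, BM only and BM + Spl, all higher, beside 17.3%, 23.8% and 27.9% of genes either way and 9.7%, 13.9% and 15.9% higher. Tgfbr1 passed in all 3, at 17.6, 24.0 and 33.8 CPM (log2 ratios 0.64, 0.86 and 1.43, the first 0.56 with the median of all genes removed). Smad7 was at 96.2, 105 and 96.1 CPM, which gave 0.47, 1.06 and 1.17, with the highest NKT2-like level in C57BL/6. Tgfbr2 (0.47, 0.62 and 1.17) and Skil (0.20, 0.59 and 0.90) passed in both BMT libraries, and Tgfb1 (0.05, 0.11 and 0.83) in BM + Spl. In BM only, Tgfbr2 was 0.56 and Skil 0.58 as a mean over cells, and Skil was 0.55 without the 5% of cells with most UMIs and 0.57 under median ratio scaling, all under 1.5-fold. Tgfb1 in BM + Spl was 0.49 when thinned. Smad2, Smad4 and Ski had intervals that included 0 in each library.

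Cycling-like cells had lower levels of several members than NKT2-like cells, and no member was higher past 1.5-fold. The counts were 2, 4 and 1 of 9 in C57BL/6, BM only and BM + Spl, beside 24.8%, 22.6% and 21.7% of genes either way and 10.1%, 8.95% and 8.06% lower. In C57BL/6 and BM + Spl the share of members was near or not far above the background. Skil was at 34.1, 25.5 and 29.3 CPM in cycling-like cells (log2 ratios -0.64, -0.77 and -0.49). Smad7 was at 47.0, 26.4 and 29.1 CPM (-0.57, -0.94 and -0.56) and Tgfbr2 at 39.2, 51.7 and 49.0 CPM (-0.61, -0.62 and -0.50). In BM + Spl it was Smad3 that passed (-0.63, -0.92 to -0.35), and in BM only Ski did (-0.66, -1.03 to -0.31). Thinned to 2700 UMIs a cell, Smad3 in BM + Spl was -0.14 and Tgfbr2 was -0.34 in C57BL/6 and -0.15 in BM only, all under 1.5-fold.

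Foxp3+ cells had more Tgfbr1, Skil, Smad7 and Tgfb1 and less Smad3 than NKT2-like cells, with 5 of 9 members past 1.5-fold against NKT2-like cells in each BMT library, beside 31.3% (BM only) and 30.4% (BM + Spl) of genes. The same 5 members passed in both, 4 higher and 1 lower. Tgfbr1 had the largest ratio, 79.8 against 13.2 CPM in BM only (log2 ratio 2.59, 2.26 to 2.93) and 49.5 against 12.6 CPM in BM + Spl (1.98, 1.70 to 2.26). Skil was higher by 1.29 (1.08 to 1.51) and 1.04 (0.87 to 1.22), Smad7 by 1.10 (0.90 to 1.31) and 1.31 (1.14 to 1.47), and Tgfb1 by 0.66 (0.55 to 0.76) and 0.64 (0.56 to 0.73). With the median of all genes removed, Tgfb1 gave 0.54 and 0.57, under 1.5-fold. For Smad3 the log2 ratios were -0.70 (-1.10 to -0.31) and -1.69 (-2.15 to -1.25). Tgfbr2 had an interval that included 0 in BM only (0.11, -0.09 to 0.30) and was lower by less than 1.5-fold in BM + Spl (-0.42, -0.61 to -0.23).

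Other cells in the sort had high levels of the ligand and the type I receptor. In the plasmacytoid dendritic gate Tgfb1 was at 485 CPM in BM only and 382 CPM in BM + Spl, and Tgfbr1 at 116 and 88.2 CPM, each the highest of the gates in its library. The same gate had 9.35 and 11.3 CPM of Smad3, and the B-cell gate 19.1 and 6.33 CPM, the latter from 4 UMIs. Tgfbr2 in the B-cell gate was at 115 and 106 CPM. Over all cells these gates add to the sums of Tgfb1 and Tgfbr1 in the BMT libraries but hardly to those of C57BL/6, where 2 cells met the plasmacytoid dendritic gate.

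BM only and C57BL/6 libraries differed in 3 of 9 members in NKT2-like cells and in 3 of 9 in NKT1-like cells, beside 40.0% and 43.2% of genes, so the share of members was below the background. They were the same genes in both gates. Ski was at 88.3 CPM in C57BL/6 and 31.9 CPM in BM only among NKT2-like cells, and at 106 and 33.4 CPM among NKT1-like cells (log2 ratios -1.47 and -1.67). Smad2 was at 23.9 and 55.2 CPM, and 27.4 and 54.2 CPM (1.21 and 0.99), and Tgfb1 at 118 and 205 CPM, and 139 and 221 CPM (0.79 and 0.67). The median log2 ratio of all genes was 0.12 and 0.11 in these comparisons, and the ratio of Tgfb1 in NKT1-like cells fell to 0.57, under 1.5-fold, when it was removed. Recipient strain, age, irradiation, transplantation, depth and the version of the counting software, Cell Ranger, all differed and cannot be told apart here. Whether the library kit differed too is not stated. Smad4 in NKT2-like cells was at 44.5 and 44.4 CPM and Smad3 at 31.6 and 30.7 CPM.

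NKT2-like cells were also split into those with and without a Ccr7 UMI, Ccr7 being the chemokine receptor that marks less mature iNKT cells. No member differed past 1.5-fold in any library among 893 and 936 cells of C57BL/6, 557 and 370 of BM only, and 1037 and 543 of BM + Spl. The share of all genes past 1.5-fold was not counted for this split, so that count says nothing particular to the members. Tgfb1 was lower in the Ccr7+ cells of each library, with log2 ratios of -0.17 (-0.27 to -0.06), -0.25 (-0.41 to -0.10) and -0.22 (-0.34 to -0.10). Smad3 was lower in Ccr7+ cells of BM + Spl (-0.32, -0.63 to -0.01), with 25.7 and 32.2 CPM, and its interval included 0 in the other libraries. Smad2 was higher in Ccr7+ cells of BM only (0.33, 0.02 to 0.65) and Ski in those of C57BL/6 (0.20, 0.08 to 0.32). Their intervals also included 0 in the other libraries. Depth was not equalised in this split.

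Of 58 other pathway genes, which comprise ligands and latency proteins, other receptors, other Smads, regulators, corepressors, the non-Smad arm and known targets, 36 had enough UMIs in NKT1-like cells. There, 7 were higher and 5 lower past 1.5-fold in BM + Spl than in BM only, with a median log2 ratio of -0.09 against 0.04 over all genes, of which 19.1% passed. In NKT2-like cells 0 of 33 were higher and 1 was lower, beside 2.17% of all genes. That 1 was Itgae, which encodes the integrin chain CD103, a known target of TGF-beta in T cells. The targets did not move 1 way. Of 4 listed targets with enough UMIs in NKT1-like cells, 3 were higher past 1.5-fold in BM + Spl and 1, Itgae, was lower. Itgae was at 218, 281 and 100 CPM in NKT1-like cells of C57BL/6, BM only and BM + Spl, at 62.4, 51.1 and 29.0 CPM in NKT2-like cells and at 212, 229 and 82.9 CPM in NKT17-like cells. BM + Spl was the lowest library in each of these gates, with log2 ratios to BM only of -1.49 (-1.63 to -1.35), -0.82 (-1.02 to -0.61) and -1.47 (-1.76 to -1.19). In Foxp3+ cells it was at 476 and 346 CPM in BM only and BM + Spl, a difference under 1.5-fold. The Smad3 interval in NKT2-like cells included 0, and whether Itgae and Smad3 levels are linked was not tested.

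**Figure D5:**
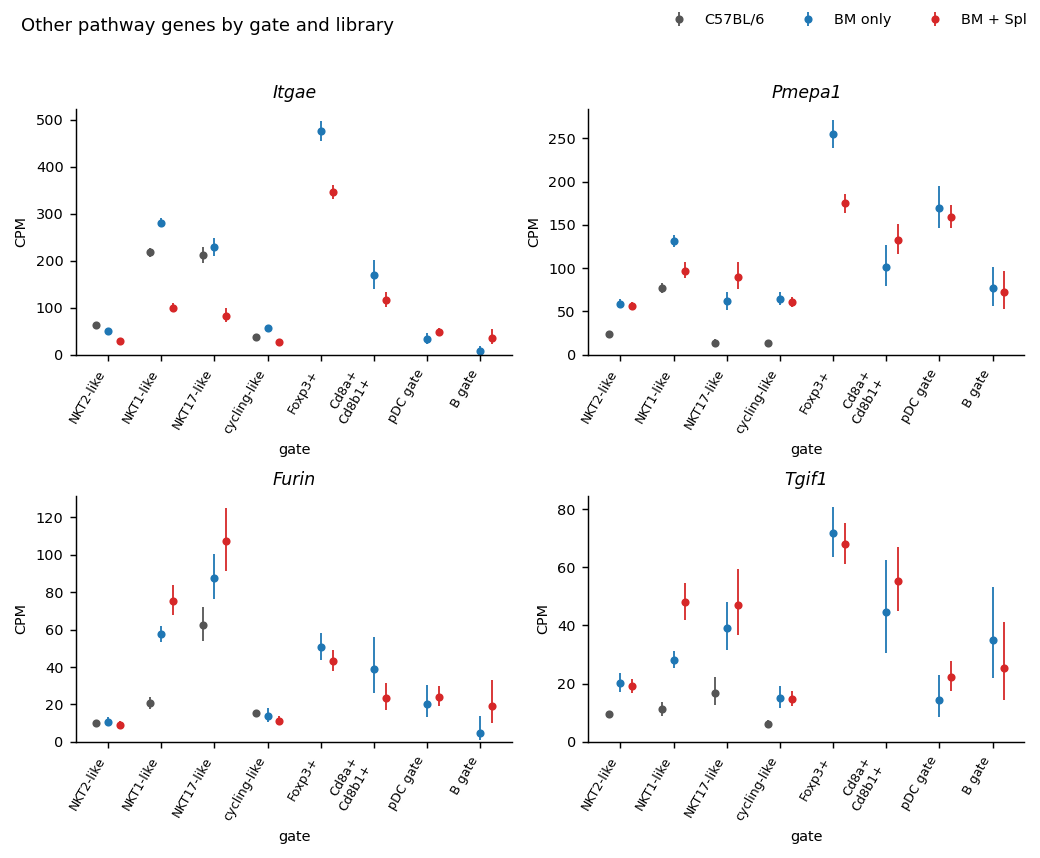
Level in CPM (y axis, linear, from 0; scales differ) of Itgae, Pmepa1, Furin and Tgif1 by gate (x axis, pDC for plasmacytoid dendritic) in C57BL/6 (grey), BM only (blue) and BM + Spl (red), with exact Poisson 95% intervals. Itgae in NKT1-like cells is at 218, 281 and 100 CPM in the 3 libraries in that order.

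The 7 genes higher in NKT1-like cells of BM + Spl were Itgav, Bmpr2, Tgif1, Hdac1 and the listed targets Cdkn1a, Nt5e and Cdkn2b, the last with an interval that included 0. Itgav, an integrin chain that can release active TGF-beta, was at 18.6 CPM in BM only and 48.1 CPM in BM + Spl (log2 ratio 1.37, 1.09 to 1.65), and Tgif1, a Smad corepressor, at 28.2 and 47.9 CPM (0.76, 0.51 to 1.01). Besides Itgae, those lower were Nedd4l (-1.50, -2.38 to -0.72) and Smurf2 (-0.69, -0.99 to -0.40), both ubiquitin ligases that act on the pathway, Acvr1b (-0.80, -1.44 to -0.22) and Smad1 (-0.67, -1.17 to -0.21).

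A few pathway genes differed between the gates in every library. Against NKT2-like cells, NKT1-like cells of C57BL/6, BM only and BM + Spl had more Itgae (log2 ratios 1.81, 2.46 and 1.79) and more Pmepa1, a feedback inhibitor and known target (1.70, 1.15 and 0.78). They also had more Furin, the protease that cleaves the TGF-beta precursor (0.997, 2.44 and 3.04), and more Tab2 of the non-Smad arm (0.59, 0.75 and 1.15). They had less Eng, which encodes the co-receptor endoglin (-2.15, -3.51 and -3.23). The count of the 58 genes past 1.5-fold was 9 of 35, 11 of 35 and 14 of 36, beside 22.1%, 27.6% and 28.0% of all genes, so that the first and second shares were near the background. Foxp3+ cells had, in BM only and BM + Spl, more Lrrc32 (4.005 and 5.82) and Itgb8 (6.62, 5.04 to 8.91, from 3 UMIs in NKT2-like cells, and 5.78), which tether and activate latent TGF-beta on regulatory T cells. They had less Tgfbr3, a co-receptor (-3.08 and -1.84), and less Smurf2 (-1.61 and -1.54).

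Genes most like a member were found by Pearson correlation of log2(CPM + 1) over 25 pools of gate and library, among 9849 genes. The pools share libraries and depth, and several pools share a library kit, so the values are descriptions. Smad3 followed Vipr1 (r = 0.82), Msra (0.81) and Atp8b4 (0.81), and Smad7 followed Akap13 (0.89), Lrrfip1 (0.89) and Ptprc (0.86). Skil followed Samsn1 (0.92), Atxn7l1 (0.87) and Stat3 (0.86), and Tgfbr1 followed Syngr2 (0.95), Sdc4 (0.91) and Bmp2k (0.91). For Tgfbr2 they were Rabac1 (0.83), Arhgap26 (0.82) and Susd6 (0.81), and for Smad4 Oxsr1 (0.82), Rc3h1 (0.81) and Tbc1d2b (0.80). Smad2 followed Trbv13-1 (0.90), Tada1 (0.90) and Dnm2 (0.89), and Ski followed Pum2 (0.95), Gm12840 (0.95) and Mark2 (0.95). Among the members, Smad7 and Skil were the most alike over the pools (r = 0.84, and 0.87 with library means removed), and Smad3 and Tgfbr1 ran most opposite with library means removed (-0.58).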

How the data were processed

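Sorted thymic cells of an early iNKT phenotype were measured in 3 droplet libraries, 1 per group. The authors deposited UMI counts per gene and cell from Cell Ranger on mm10, without normalization. The headers name version 3.0.2 for C57BL/6 and 7.0.0 for both BMT libraries, where the methods name another version, and these references hold 31053 and 32285 gene identifiers. Identifiers in common were used.

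The filter stated by the authors was applied (more than 200 but fewer than 6000 genes, mitochondrial share below 10%), which left more BMT cells here than they analysed. Doublets were kept, since no removal step is stated. A cell went to the first gate it met, in the order B cell (at least 2 of 5 markers with a UMI), plasmacytoid dendritic (3 of 6), myeloid (3 of 9), Foxp3 (1), Cd8a with Cd8b1 (2), cycling (3 of 10), NKT17 (3 of 10), and then NKT1 or NKT2 (2 of 6 each, by the larger number, ties being mixed). UMIs were summed per gate and library, scaled to CPM over shared genes, and given where a gate held at least 50 cells. Levels have exact Poisson and ratios exact conditional binomial 95% intervals, both for counting error only. A gene was tested with at least 100 UMIs in the 2 pools and called past 1.5-fold, as no replicate existed for a test of significance.

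Named genes are the 9 members, pathway genes of the lists past 1.5-fold with an interval that excludes 0 (Cdkn2b is named outside this rule), from which examples were taken, and the 3 genes most like each member, which for Tgfb1 are not reported here. The members and all lists were chosen with earlier results of these data known. The calculation was tested on simulated data with known ratios. Alternatives changed the depth, the gates, the filter, the scaling, the weighting of cells, the UMI minimum and the V beta of cells, and comparisons within V beta classes between gates were added after values had been seen. Promoter sequences came from RefSeq (GRCm38.p6), where 5 of 9 members matched, and positions from GENCODE (GRCm38). Python 3.11.15, numpy 2.4.6, scipy 1.17.1, pandas 2.3.3 and matplotlib 3.10.9 were used.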

Additional observations from a re-analysis of the deposited data

Results flagged for a closer look

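Smad3 in NKT1-like against NKT2-like cells had opposite directions in the BMT libraries. The log2 ratio was 0.70 in BM only and -1.26 in BM + Spl, and it was looked at again because the signs differ with no overlap of the counting intervals. The difference was not tested, since each condition had 1 library.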

How the results depend on the processing

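Of 1361 values of members under alternatives, 1267 moved by less than their counting interval, 94 moved further and 0 turned a called direction. Of 397 alternatives of called values, 355 kept the call and 42 lost it. Some of these outcomes were fixed in advance. A minimum of 50 UMIs leaves every value as it was, and 1 more marker in 4 gates leaves the pools of all cells, Foxp3+ and Cd8a+Cd8b1+ cells as they were. Alternatives that left a gene with too few UMIs to be tested are not in these counts, nor are calls gained. The log2 ratio of Smad3 in NKT1-like cells of BM + Spl to BM only ranged from -2.34 to -1.80. With the mean over cells in place of summed UMIs, 8 of the 13 calls of NKT1-like against NKT2-like cells were left. Of all genes, 22.6%, 27.5% and 28.6% then passed in C57BL/6, BM only and BM + Spl. Without the 5% of cells with most UMIs, 4 of 7 were left for cycling-like against NKT2-like cells. All genes then passed at 21.0%, 22.5% and 19.2% in the same library order. With iNKT V beta cells only, BM + Spl against BM only had 2 calls over all cells in place of 1, and 5 within 6 gates in place of 9 within 8 gates. The 2 gates that then held under 50 cells had 0 calls before, and calls within the other 6 gates went from 2 to 0 in NKT17-like, 3 to 2 in Foxp3+, 1 to 0 in cycling-like and in ungated and 0 to 1 in NKT2-like cells. In NKT17-like cells Smad3 then had too few UMIs to be tested, and Tgfb1 fell under 1.5-fold. Wherever Smad3 was tested in that gate, its log2 ratio was -0.82 to -0.79. Thinning to 2700 UMIs left out 15, 959 and 568 cells of C57BL/6, BM only and BM + Spl, and ended among others the calls of Tgfbr1 (0.51) and Tgfbr2 (0.56) between NKT1-like and NKT2-like cells of BM only. Tgfbr2 in that comparison lies at the 1.5-fold line and lost its call under several settings. The causes were not tested. No paired analysis was possible because each group has 1 library, and no library could be left out for the same reason.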
